A study of Homo sapiens with 4 samples.

Results

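Autophagy genes were examined in cells that carry the labels KMS11 and OPM2, both human multiple myeloma lines. The 37 genes cover the machinery that starts autophagy, the conjugation enzymes, the ATG8 proteins and the cargo receptors. They were found in the deposited table by current or older gene symbol, and all 37 were measured, among 22393 named genes in all. The groups were KMS11-labelled cells treated with KPT-9274 for 48 h, KMS11-labelled cells with no agent, OPM2 cells treated with KPT-9274 for 48 h, and OPM2 cells with no agent. KPT-9274 is a known inhibitor of PAK4, a kinase, and of NAMPT, which recycles NAD. No time is given for the untreated cells, so the compound and the hours in culture cannot be told apart. Each group is 1 whole-transcript array, so there were 4 arrays, and the treatment was repeated only across the 2 lines. The labels do not mention separate cultures. The p-values measure only spread between these arrays, with the variance of each gene drawn in part from all tested genes.

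Autophagy encloses cytoplasm in a double membrane, the autophagosome, and delivers it to the lysosome. The ULK kinase complex starts the process, the PIK3C3 lipid kinase complex marks the site with PI3P, ATG9 vesicles and ATG2 supply lipid, and conjugation enzymes attach ATG8 proteins to the growing membrane. Cargo receptors bind ATG8 proteins and the material to be removed. Plasma cells and myeloma cells, which secrete large amounts of protein, are known to rely on autophagy beside the proteasome.

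Signal is given on the log2 scale as deposited, where a difference of 1 is 2-fold, and levels of different genes are not set against each other. Array medians over all clusters lay between 5.68 and 6.07, the highest on the treated OPM2 array. Background was set at the 95th percentile of 392 olfactory receptor genes and came to 6.56 on the treated KMS11-labelled array, 6.45 on the KMS11-labelled control, 7.65 and 6.81 on the treated and control arrays of OPM2. Of the 37 genes, 26 lay above background on every array and 28 on the treated OPM2 array. The arrays labelled KMS11 went against their label. Of 12 plasma cell markers 5 lay above background on each KMS11-labelled array, against 7 on the treated and 8 on the control OPM2 array. Of 9 measured erythroid and megakaryocyte markers 8 lay above background on each KMS11-labelled array, against 0 and 1 on the treated and control OPM2 arrays. Of 12 myeloid and mast cell markers the counts were 7 on each KMS11-labelled array, against 0 and 2 on those OPM2 arrays. The logarithm of the summed signal was 12.02 and 12.28 for plasma cell markers on the treated and control KMS11-labelled arrays, against 17.02 and 17.33 on those of OPM2. For erythroid markers it was 16.61 and 16.48 against 9.55 and 9.34, and for myeloid markers 16.76 and 16.96 against 9.63 and 9.54. IRF4, on which plasma cells depend, read 6.59 and 6.75 on the treated and control KMS11-labelled arrays, and 11.88 and 14.26 on those of OPM2. Most of the plasma cell sum in OPM2 was JCHAIN, which read 16.88 and 16.99 there, and 10.68 and 9.94 on the KMS11-labelled arrays. XBP1 was closer, with 10.35 and 11.49 against 10.99 and 12.39. CD79A went the other way, with 9.22 and 9.08 on the KMS11-labelled arrays and values under background in OPM2. SDC1, SLAMF7 and FCRL5 lay under background on every array. So did EPOR of the erythroid list, and MPO, CSF3R, PRTN3, ELANE and AZU1 of the myeloid list. CEBPA was not higher on the KMS11-labelled arrays, with 7.11 and 7.08 against 7.12 and 7.49. Most of the myeloid sum there was MS4A3 (15.60 and 16.14) and HDC (14.82 and 15.02). The arrays are called KMS11-labelled throughout, and treatment changes are given for each line on its own, except where readings under background leave no change to read.

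**Figure D1:**
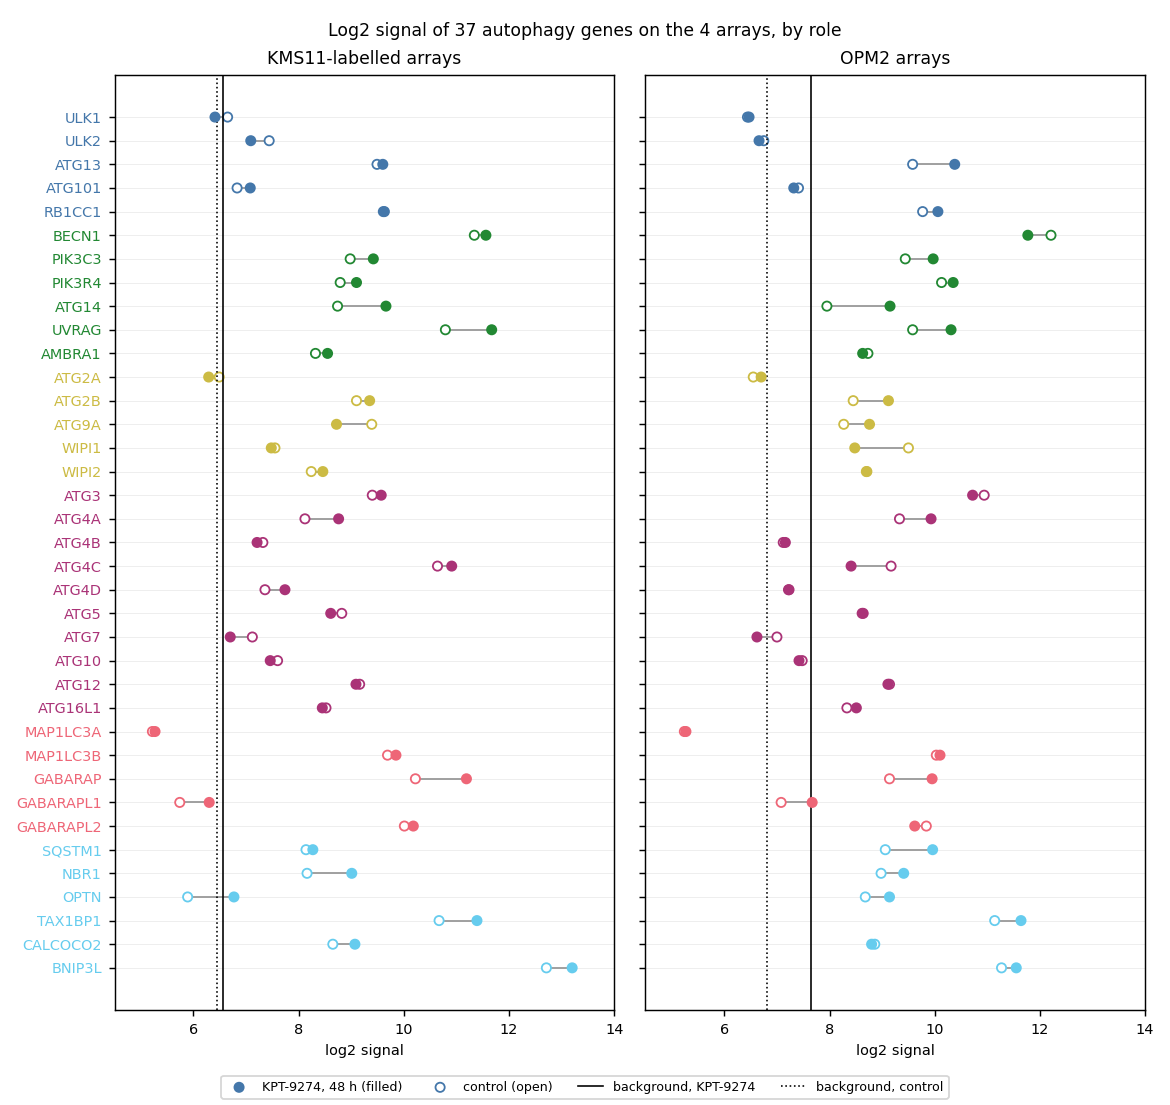
Log2 signal of the 37 autophagy genes (rows, coloured by role) on the KMS11-labelled arrays (left) and the OPM2 arrays (right), with KPT-9274 as filled and control as open points and the background of each array as a vertical line. MAP1LC3A lies left of every background line, and the lines of the OPM2 arrays stand furthest apart, at 7.65 with KPT-9274 and 6.81 in the control.

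The first comparison asks how autophagy transcripts differed after 48 h of KPT-9274. Several genes of the lipid kinase complex, the ATG8 family and the cargo receptors read higher in both lines, led by ATG14 (0.92 on the KMS11-labelled and 1.20 on the OPM2 arrays), GABARAP (0.97 and 0.81) and UVRAG (0.88 and 0.73). By the smaller of both deposited changes ATG7 was the lowest gene (-0.42 on the KMS11-labelled and -0.38 on the OPM2 arrays). Its treated OPM2 value lay under background, so the change there cannot be read. Raising values to background gave a mean change of 0.115, a sign set by the higher background of the treated OPM2 array. In bulk RNA, fewer cells of a type and less RNA per cell cannot be told apart. The limma test over both lines called 0 of the 36 tested autophagy genes higher and 0 lower, with adjusted p below 0.05 as the threshold, against 0% of all 16790 tested genes in each direction. The smallest adjusted p, over the autophagy genes and over all genes, was 0.325. Changes below are therefore given as values, treated minus control, with the KMS11-labelled arrays before OPM2.

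Before adjustment, 8 of the 36 genes (22.2%) stood higher at an unadjusted p below 0.05, against 3.97% of all tested genes, and 0 stood lower, against 8.65%. The 8 were ATG14, UVRAG, ATG4A, GABARAP, GABARAPL1, NBR1, OPTN and TAX1BP1. The count higher was 3 with values raised to background and 0 without the line term. The set was chosen with earlier results of these data known, and all tested genes include dim ones, down to a mean of 5.40. The shares are therefore description only. After each array was centred on its median, the counts among the 36 were 2 higher and 1 lower. Of all 16790 tested genes, 219 were then higher and 2347 lower. Over all tested genes, 31.4% of those at an unadjusted p below 0.05 stood higher as deposited, and 8.53% after median centring. Over the 36 genes the median change was 0.22 and 0.11, against 0.04 and 0.03 over all tested genes. Under median centring the medians of the 36 were 0.14 and -0.21, and those of all tested genes -0.04 and -0.29. As deposited, of the 36, 17 read higher in both lines (47.2%, against 34.9% of all tested genes), 5 lower in both (13.9%, against 27.9%), and 14 had opposite signs in the lines. Among the 5, the OPM2 changes of ULK2, ATG7 and ATG10 rest on readings under background. Among the 14, those of ULK1, ATG101, ATG2A and ATG4B in OPM2 do, and those of ULK1 and ATG2A on the KMS11-labelled arrays do too. Among the 17, those of GABARAPL1 and OPTN on the KMS11-labelled arrays and of ATG4D in OPM2 do. Under median centring 11 read lower in both lines. The shares of all tested genes with opposite signs, and lower in both lines under median centring, were not counted.

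Few changes reached 2-fold within a line. On the KMS11-labelled arrays 0 of the 36 genes were at least 2-fold higher (1.64% of all tested genes) and 0 at least 2-fold lower (4.43%). In OPM2 ATG14 was the 1 gene at least 2-fold higher (2.51% of all) and WIPI1 the 1 gene at least 2-fold lower (5.52%).

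The scaling of the arrays matters most for OPM2. Median centring moved the median change of all tested genes in OPM2 by -0.32, from 0.03 as deposited to -0.29, quantile normalization moved it by -0.20 and cyclic loess by -0.21. The shifts on the KMS11-labelled arrays were -0.08, 0.01 and -0.04. Under all 4 scalings, the deposited one included, 12 of the 36 genes read higher in both lines: ATG13, PIK3C3, ATG14, UVRAG, ATG2B, ATG4A, GABARAP, GABARAPL1, SQSTM1, NBR1, OPTN and TAX1BP1. ULK2 and ATG7 were the 2 that read lower in both lines under each of them. These counts take each reading as deposited, also where it lay under background, as both KMS11-labelled values of GABARAPL1, the KMS11-labelled control value of OPTN, both OPM2 values of ULK2 and the treated OPM2 value of ATG7 did. The matching shares of all tested genes, higher or lower in both lines under all 4 scalings, were not counted.

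**Figure D2:**
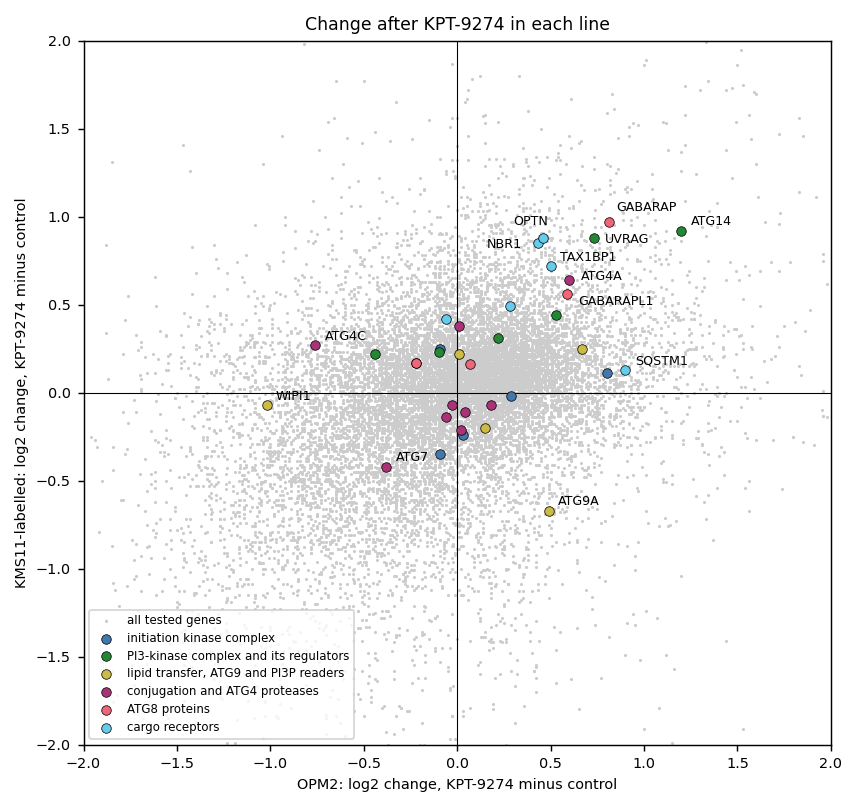
Log2 change after KPT-9274 in OPM2 (horizontal axis) and on the KMS11-labelled arrays (vertical axis) for all tested genes (grey) and the 36 tested autophagy genes (coloured by role), with axes ending at 2 log2 units and 149 genes outside them. ATG14, GABARAP and UVRAG lie furthest into the upper right, and WIPI1 lies at -1.02 in OPM2 and -0.07 on the KMS11-labelled arrays.

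Of the 5 ULK kinase complex genes as deposited, 1 read higher in both lines (34.9% of all tested genes) and 1 lower (27.9%). The other 3 had opposite signs. Only ATG13 and RB1CC1 lay above background on every array, so a direction common to the complex cannot be read. ATG13, the adaptor that ULK kinases phosphorylate, read 9.60 on the treated and 9.49 on the control KMS11-labelled array, and 10.38 and 9.58 on those of OPM2. Its change was thus larger in OPM2 (0.80 against 0.11), with a mean change of 0.46 ± 0.25 (SE, 4 arrays) and a limma adjusted p of 0.514. ULK2, a kinase of the complex, read 7.09 and 7.44 on the KMS11-labelled arrays and 6.66 and 6.75 on the OPM2 arrays. Both OPM2 values of ULK2 lay under background, so its change there cannot be read. ULK1, the paralogous kinase, lay above background on the KMS11-labelled control array alone, with 6.65 there. RB1CC1, the large scaffold of the complex also known as FIP200, had changes of -0.02 and 0.29. The HORMA-domain subunit ATG101 had 0.25 on the KMS11-labelled arrays, and in OPM2 its treated value lay under background.

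Of the PIK3C3 complex and its regulators, 4 of 6 genes read higher in both lines (34.9% of all tested genes) and 0 lower (27.9%). ATG14, the subunit that directs the complex to autophagosome formation, read 9.66 on the treated and 8.74 on the control KMS11-labelled array. In OPM2 it read 9.15 and 7.95. Both treated arrays stood above both controls, and the mean change of 1.06 ± 0.19 (SE) was the largest among the autophagy genes (limma adjusted p = 0.325). UVRAG replaces ATG14 in the form of the complex that serves endosome traffic and autophagosome maturation. It read 11.67 and 10.79 on the treated and control KMS11-labelled arrays, and 10.31 and 9.58 on those of OPM2. Within each line the treated value was higher, and the groups overlapped across lines because both KMS11-labelled values exceeded both of OPM2 (mean change 0.81 ± 0.18, adjusted p = 0.334). The subunits common to both forms differed less. PIK3C3, the catalytic subunit, read 9.42 and 8.98 on the KMS11-labelled arrays and 9.97 and 9.44 on the OPM2 arrays (mean change 0.49 ± 0.18, adjusted p = 0.403). The regulatory subunit PIK3R4 had changes of 0.31 and 0.22, and the OPM2 value turned to -0.10 under median centring. BECN1, the scaffold subunit bound by BCL2, had 0.22 and -0.44, and AMBRA1, a positive regulator of BECN1, had 0.23 and -0.10.

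Among the lipid transfer proteins, ATG9A and PI3P readers, 2 of 5 genes as deposited read higher in both lines and 1 lower. The other 2 had opposite signs, and the shares of all tested genes were 34.9% higher and 27.9% lower. WIPI1, a PI3P-binding protein of the early membrane, read 7.48 on the treated and 7.55 on the control KMS11-labelled array, and 8.48 and 9.50 on those of OPM2. Its lower reading was thus an OPM2 value, with -1.02 there and -0.07 on the KMS11-labelled arrays (0.10 under quantile normalization), and a mean of -0.55 ± 0.30 (adjusted p = 0.516). Its paralogue WIPI2, which recruits the conjugation machinery, had 0.22 and 0.01. ATG2B, a lipid transfer protein, had 0.25 and 0.67, while ATG2A was above background on the KMS11-labelled control array alone. ATG9A, the membrane-spanning scramblase of ATG9 vesicles, read 8.72 and 9.39 on the treated and control KMS11-labelled arrays and 8.76 and 8.27 on those of OPM2. Its changes of -0.67 and 0.49 pointed in opposite directions.

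The conjugation enzymes and ATG4 proteases attach ATG8 proteins to lipid and trim or release them. As deposited, of 10 tested genes 2 read higher in both lines (34.9% of all tested genes), 3 lower (27.9%) and 5 had opposite signs. In that count the OPM2 signs of ATG4B, ATG4D, ATG7 and ATG10 rest on treated readings under background. ATG4A, a protease that acts on the GABARAP subfamily, read 8.76 and 8.12 on the treated and control KMS11-labelled arrays and 9.93 and 9.33 on those of OPM2. The changes of 0.64 and 0.60 were close in size (mean 0.62 ± 0.17, adjusted p = 0.356). The other proteases gave no such pair of readings. ATG4C had 0.27 and -0.76, ATG4B had -0.11 on the KMS11-labelled arrays and ATG4D 0.38 there, and the treated OPM2 values of ATG4B and ATG4D lay under background. ATG7, the enzyme that activates both ATG12 and ATG8 proteins, read 6.70 and 7.12 on the KMS11-labelled arrays and 6.62 and 7.0 on the OPM2 arrays. Both treated values lay below both controls (mean -0.40 ± 0.18, adjusted p = 0.449), but the treated OPM2 value lay under the background of its array. ATG10, the E2 enzyme for ATG12, read 7.46 and 7.6 on the treated and control KMS11-labelled arrays and 7.42 and 7.48 on those of OPM2. Its change was -0.14 on the KMS11-labelled arrays, and the treated OPM2 value lay under background. ATG12, the ubiquitin-like protein joined to ATG5, read 9.09 and 9.16 on the KMS11-labelled arrays and 9.11 and 9.14 on the OPM2 arrays (changes -0.07 and -0.03, and 0.14 and 0.06 under quantile normalization). The remaining 3 genes read close to their controls. The E2 enzyme ATG3 had 0.17 and -0.22, ATG5, the partner of ATG12, -0.21 and 0.02, and ATG16L1, which binds the ATG12 and ATG5 conjugate, -0.07 and 0.18.

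The ATG8 proteins coat the autophagosome membrane and fall into the LC3 and GABARAP subfamilies. GABARAP read 11.19 on the treated and 10.22 on the control KMS11-labelled array, and 9.95 and 9.14 on those of OPM2. The treated value was higher within each line, and the 2 groups overlapped across lines (mean change 0.89 ± 0.18, adjusted p = 0.325). GABARAPL1 read 7.67 and 7.08 on the treated and control OPM2 arrays, a change of 0.59, and the treated value lay just above that array's background. On the KMS11-labelled arrays it read 6.30 and 5.74, both under background, so no change is given there. GABARAPL2 read 10.18 and 10.01 on the KMS11-labelled arrays and 9.62 and 9.84 on the OPM2 arrays. The changes of GABARAPL2 were 0.17 and -0.22, of opposite sign. MAP1LC3B, the LC3 protein used most widely as an autophagosome marker, read 9.85 and 9.69 on the KMS11-labelled arrays and 10.10 and 10.03 on the OPM2 arrays. It differed little in either line, with 0.16 and 0.07 (-0.25 in OPM2 under median centring). MAP1LC3A read between 5.22 and 5.27 on the 4 arrays, under background on each, and was not tested. MAP1LC3B has the near-identical copy MAP1LC3B2, and GABARAPL1 a near-identical pseudogene, so probes may read both.

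Of the cargo receptors, 5 of 6 read higher in both lines (34.9% of all tested genes did) and 0 lower (27.9%). Their median changes were 0.60 and 0.45. The ATG8 proteins had 3 of 4 higher as deposited, and the PIK3C3 complex with its regulators 4 of 6, each with 0 lower. Among these genes, GABARAPL1 lay under background on both KMS11-labelled arrays. Under median centring the OPM2 changes of MAP1LC3B (-0.25), PIK3R4 (-0.10) and the receptor BNIP3L (-0.04) turned sign. The difference between roles was not tested. TAX1BP1, a receptor for protein aggregates and bacteria, read 11.39 and 10.67 on the treated and control KMS11-labelled arrays and 11.64 and 11.14 on those of OPM2. Both treated arrays exceeded both controls (mean change 0.61 ± 0.18, adjusted p = 0.361). NBR1, a receptor for ubiquitinated cargo, read 9.01 and 8.16 on the KMS11-labelled arrays and 9.41 and 8.98 on the OPM2 arrays. Here too both treated arrays stood above both controls (mean 0.64 ± 0.21, adjusted p = 0.370). OPTN, a receptor for mitochondria and bacteria, read 6.77 and 5.89 on the KMS11-labelled arrays and 9.14 and 8.68 on the OPM2 arrays. The KMS11-labelled control lay under background, so that change is at least 0.32, and the change in OPM2 was 0.46 (mean as deposited 0.67 ± 0.21, adjusted p = 0.361).

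SQSTM1, also known as p62, carries ubiquitinated proteins and is itself degraded by autophagy. It read 8.27 and 8.14 on the treated and control KMS11-labelled arrays and 9.96 and 9.06 on those of OPM2. The change was thus 0.13 and 0.90, mainly an OPM2 value (mean 0.52 ± 0.26, adjusted p = 0.493). BNIP3L, the mitophagy receptor also called NIX that clears mitochondria from maturing red cells in mice, read 13.20 and 12.71 on the KMS11-labelled arrays and 11.55 and 11.27 on the OPM2 arrays. Its changes were 0.49 and 0.28, and the OPM2 value turned to -0.04 under median centring. CALCOCO2, the receptor NDP52 for bacteria and mitochondria, read 9.07 and 8.65 on the KMS11-labelled arrays and 8.80 and 8.86 on the OPM2 arrays. Its 0.42 and -0.06 make it the 1 receptor of opposite sign.

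**Figure D3:**
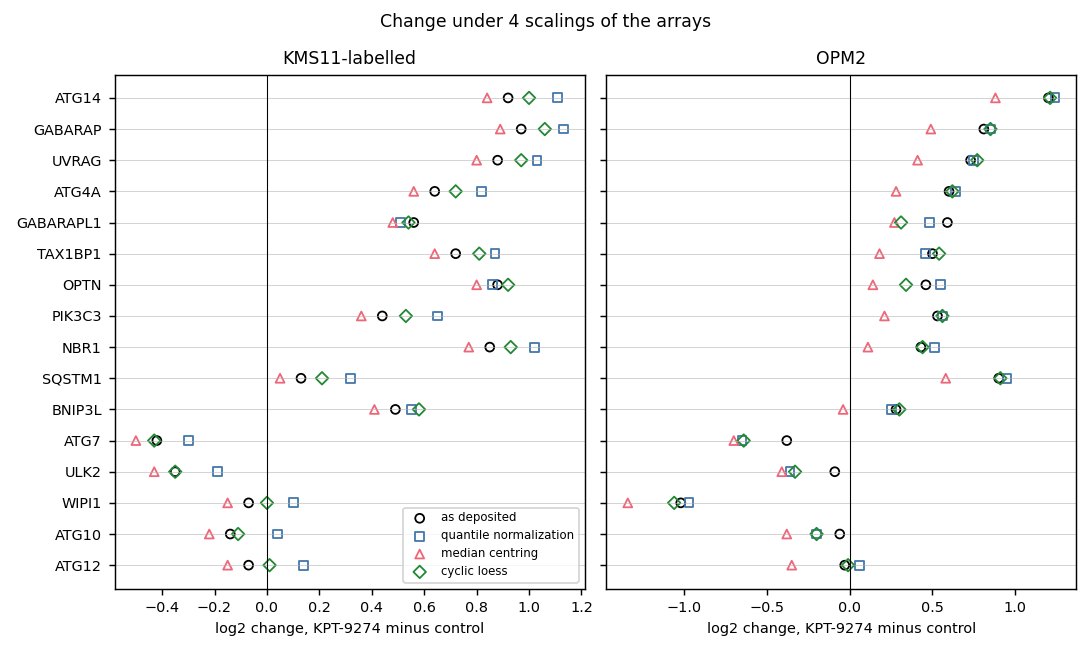
Log2 change after KPT-9274 on the KMS11-labelled arrays (left) and in OPM2 (right) for the autophagy genes of largest common change and 3 further cargo receptors, under the deposited scale and 3 other scalings of the arrays. Median centring gives the lowest OPM2 value for each of these genes, and BNIP3L crosses to -0.04 there.

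The sequence upstream of the genes was searched for motifs of factors known to act on autophagy or stress genes. The 4 motifs, chosen after the values were seen, were the E-box CACGTG bound by TFEB relatives and MYC, the cyclic AMP response element TGACGTCA, the FOXO core GTAAACA, and TGATGNAA of ATF4. Both strands were searched in windows of 250 bases before to 50 after each start (RefSeq, GRCh38.p14), of which 40 windows of 32 of the autophagy genes were in the table. CACGTG was found for ATG14 and ATG3 (7.25% of all 35097 windows), TGACGTCA for GABARAPL1 (1.85%), GTAAACA for CALCOCO2 (3.42%) and TGATGNAA for 0 genes (3.62%). The 150 bases before the start are shown for ATG14 and GABARAP, the genes with the largest mean changes, for GABARAPL1, which carries the response element, and for ATG3, which carries the E-box. Capitals mark CACGTG or TGACGTCA. They lie at chr14:55411831-55411980 (minus strand) for ATG14, chr3:112561963-112562112 (minus) for ATG3, chr17:7242450-7242599 (minus) for GABARAP and chr12:10212727-10212876 (plus) for GABARAPL1.
ATG14: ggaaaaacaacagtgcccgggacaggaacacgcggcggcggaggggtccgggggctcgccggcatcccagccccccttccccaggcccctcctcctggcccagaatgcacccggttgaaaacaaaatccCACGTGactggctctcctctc
ATG3: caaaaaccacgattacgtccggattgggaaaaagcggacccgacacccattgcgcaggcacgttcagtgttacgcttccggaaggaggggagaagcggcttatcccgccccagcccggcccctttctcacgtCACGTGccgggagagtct
GABARAP: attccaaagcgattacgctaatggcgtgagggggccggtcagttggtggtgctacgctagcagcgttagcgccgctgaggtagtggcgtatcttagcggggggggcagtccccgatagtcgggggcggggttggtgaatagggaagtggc
GABARAPL1: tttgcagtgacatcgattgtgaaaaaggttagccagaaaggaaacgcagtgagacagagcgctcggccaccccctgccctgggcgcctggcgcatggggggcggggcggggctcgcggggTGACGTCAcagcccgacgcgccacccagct

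The E-box ends 16 bases before the start in ATG14 and 13 bases before it in ATG3, and the response element of GABARAPL1 ends 23 bases before its start. A match describes the letters alone and is not a measured binding site.

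The second comparison is between the lines, over the treated and the control array of each. OPTN, WIPI1, ATG3, SQSTM1, PIK3R4, ATG4A and GABARAPL1 were lower on the KMS11-labelled arrays, and ATG4C, BNIP3L, UVRAG and GABARAP were higher. By limma 4 of 36 genes (11.1%) were higher, against 10.8% of all tested genes, and 7 (19.4%) were lower, against 8.28%, while 25 did not pass. In this test the treated and control array of a line stand as its replicates. A difference of line and one of culture can therefore not be told apart. The KMS11-labelled arrays carry 8 of 9 measured erythroid and 7 of 12 myeloid markers above background. Fewer plasma cell genes lay above background there than in OPM2, as counted above. The part of that difference in these values was not tested.

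Receptors and ATG8 proteins were split between the lines. OPTN had the largest difference, -2.58 ± 0.21 (SE, adjusted p = 0.0109), and -2.30 with values raised to background, since the KMS11-labelled control lay under it. Between the treated arrays, both above background, OPTN differed by -2.37. SQSTM1 was also lower on the KMS11-labelled arrays (-1.31 ± 0.26, adjusted p = 0.0482), and BNIP3L was higher (1.55 ± 0.18, adjusted p = 0.0192). GABARAP was higher on the KMS11-labelled arrays (1.16 ± 0.18, adjusted p = 0.030). GABARAPL1 was lower by at least 0.87 (-1.36 ± 0.17 as deposited, adjusted p = 0.0220), since both KMS11-labelled values lay under background. Among the other receptors, NBR1 (-0.61), TAX1BP1 (-0.36) and CALCOCO2 (0.03) did not pass.

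The lipid kinase complex and the enzymes were split in the same way. UVRAG was higher on the KMS11-labelled arrays (1.29 ± 0.18, adjusted p = 0.0250), and PIK3R4 was lower (-1.30 ± 0.18, adjusted p = 0.0241). ATG4C, a protease of ATG8 proteins, was higher by 1.99 ± 0.32 (adjusted p = 0.0317), with 1.47 between the control arrays and 2.50 between the treated ones. ATG4A, its paralogue, was lower (-1.19 ± 0.17, adjusted p = 0.0274). ATG3, the E2 enzyme for ATG8 proteins, was lower (-1.35 ± 0.20, adjusted p = 0.0284), as was WIPI1 (-1.48 ± 0.30, adjusted p = 0.0488). The ULK complex had 0 of 5 genes past the test. ULK2 was higher on the KMS11-labelled arrays by at least 0.04, since both OPM2 values lay under background, and ATG13 differed by -0.44. ATG12, ATG16L1 and ATG5, whose products form 1 complex and which lay above background on every array, differed by 0.00, 0.07 and 0.09 and did not pass.

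**Figure D4:**
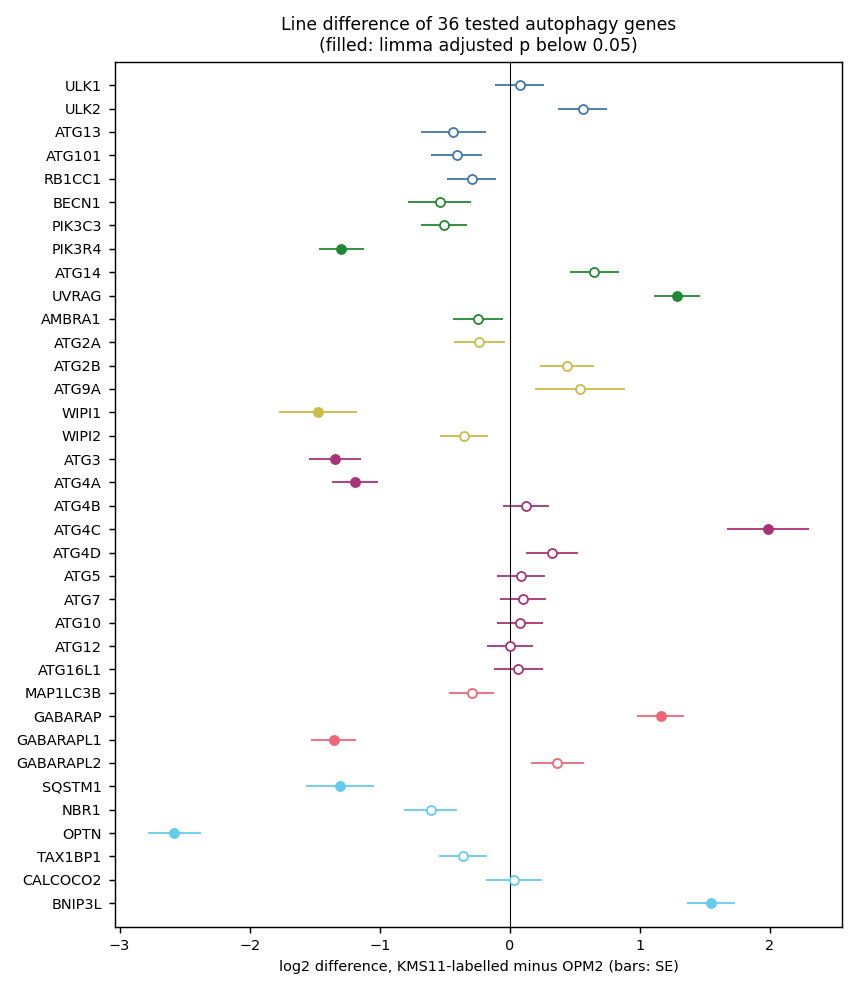
Difference in log2 signal, KMS11-labelled minus OPM2, for the 36 tested autophagy genes (rows, coloured by role), with bars for the SE of the limma fit over 4 arrays and filled points for an adjusted p below 0.05. The 11 filled points run from OPTN at -2.58 to ATG4C at 1.99.

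The pathway holds further genes outside this set. A list of 59 others gave 51 tested genes, since 7 had no cluster named for them alone and RUBCNL was left out as dim. After KPT-9274 13 of the 51 stood higher in both lines (34.9% of all tested genes did) and 11 stood lower (27.9% of all), readings under background included. By limma 0 passed, with 3 higher and 3 lower at an unadjusted p below 0.05 (3.97% and 8.65% of all). The median change was 0.07 and 0.00, against 0.04 and 0.03 over all tested genes. TP53INP1, which moves to autophagosomes, had 0.96 and 1.72 (adjusted p = 0.325). VPS11, a core subunit of the tethering complexes that bring autophagosomes to lysosomes, read 12.09 and 10.48 on the treated and control KMS11-labelled arrays and 10.19 and 9.35 on those of OPM2 (changes 1.61 and 0.84, adjusted p = 0.328). The tether EPG5 had 0.47 and 1.89, the transcription factor MITF 0.45 and 0.37, CALCOCO1, a paralogue of CALCOCO2 known as a receptor for the endoplasmic reticulum, 0.36 and 1.24, and MAP1LC3B2 0.41 and 0.22. These 6 were the highest by the smaller of both changes.

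The lowest 6 by that measure, ranked on the readings as deposited, held regulators and membrane proteins, and the OPM2 changes of DDIT4 and ZKSCAN3 in that ranking rest on readings under background. DDIT4, an inhibitor of mTORC1, had -2.78 on the KMS11-labelled arrays and was lower by at least 0.27 in OPM2 (adjusted p = 0.372). TMEM41B, a scramblase needed for autophagosome formation, read 10.25 and 10.81 on the treated and control KMS11-labelled arrays and 9.45 and 10.20 on those of OPM2 (changes -0.56 and -0.75, adjusted p = 0.356). ZKSCAN3, a repressor of autophagy genes, had -0.87 on the KMS11-labelled arrays and lay under background in OPM2. The AMPK catalytic subunit PRKAA1 had -0.60 and -0.42, the large adaptor WDFY3 -0.30 and -0.29, and the fusion SNARE SNAP29 -0.25 and -0.64. Between the lines, 8 of the 51 were higher on the KMS11-labelled arrays and 6 lower by limma, against the 10.8% and 8.28% of all tested genes given above. TFEB, the transcription factor that drives many autophagy and lysosome genes, lay under background on every array.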

How the data were processed

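Values of 4 arrays were analysed, 1 for each line and treatment. The authors deposited log2 signal per transcript cluster, and the submitters' processing notes name the Transcriptome Analysis Console. How probes were summarized, how arrays were normalized and which build was used is not given in the sources used here. That the scale is log2 follows from the range of the values, and the number of arrays limits the precision.

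Of 65528 clusters 22755 had 1 gene symbol, 1389 several and 41384 none, and symbols were updated through gene numbers. The brightest cluster stood for a gene, and each autophagy gene had 1. The 25% of genes with the lowest mean (at most 5.40) were left out, which kept 16790. MAP1LC3A was left out this way.

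A linear model with line and agent was fitted in R 4.3.3 with limma 3.58.1 (1 residual and 2.79 prior degrees of freedom), two-sided, with Benjamini-Hochberg adjustment over all tested genes at 0.05. On simulated data with independent noise and no line difference, it recovered the mean size of planted changes. That does not test its calls on these arrays. The line is a term because its arrays share their cells. Within a line there is no test. The difference between the lines' responses is the only residual and could not be tested. A reading under background makes a change a bound, or none.

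All 37 autophagy genes were described by role, with values for each array for the ATG8 proteins, the cargo receptors and up to 8 genes higher and 8 lower by the smaller of both lines' changes. From the other pathway genes, up to 6 each way were named. Members, lists and background measure were chosen with earlier results of these data known. Alternatives were quantile normalization, median centring, cyclic loess, no filter, a filter at 50%, the mean of clusters, a trended robust prior, no line term, values raised to background, and each line alone.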

Additional observations from a re-analysis of the deposited data

Results flagged for a closer look

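ATG9A and ATG4C had changes of opposite sign in the lines that lay at least 1 log2 unit apart. The change of ATG9A on the KMS11-labelled arrays minus that in OPM2 was -1.16, from changes of -0.67 and 0.49. For ATG4C that difference was 1.03, from 0.27 and -0.76. Both differences rest on 1 array per line and treatment and were not tested.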

How the results depend on the processing

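Under every alternative run, 0 autophagy genes passed the treatment test, while over all genes it called 5 with quantile normalization and 161 with values raised to background. The numbers of genes past the line test stayed within 1.5 times those reported. WIPI1 and SQSTM1 lost their line call without a filter (adjusted p = 0.0702 and 0.0669), where more genes were tested, and GABARAPL1 with values raised to background (-0.872, adjusted p = 0.0967). The count higher at an unadjusted p below 0.05 was 2 under median centring (1 lower), 5 with the trended robust prior, 0 without the line term and 3 with values raised to background. The count lower in both lines became 11 under median centring and 2 with values raised to background. At least 2-fold higher genes on the KMS11-labelled arrays numbered 4 with quantile normalization and 1 with cyclic loess. In OPM2 they numbered 0 under median centring. At least 2-fold lower genes in OPM2 numbered 0 under quantile normalization and 2 under median centring. The median change on the KMS11-labelled arrays was 0.374 with quantile normalization and 0.140 with median centring. In OPM2 it was -0.210 under median centring and 0.429 with values raised to background. That last setting raises OPM2 changes of dim genes by its construction, since the background of the treated OPM2 array is higher.

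Some mean changes turned sign, among them those of ATG7 (-0.400 as deposited) and ULK2 (-0.220). Under median centring they were -0.120 for ATG101, -0.065 for RB1CC1, -0.135 for AMBRA1, -0.085 for WIPI2, -0.005 for ATG4D, -0.145 for ATG16L1, -0.085 for MAP1LC3B and -0.020 for CALCOCO2. Under quantile normalization they were 0.050 for ATG9A, 0.081 for ATG3, 0.045 for ATG5, 0.098 for ATG12 and 0.099 for GABARAPL2. After cyclic loess they were -0.017 for ATG101, 0.040 for ATG3, 0.003 for ATG12 and 0.039 for GABARAPL2. With values raised to background they were 0.374 for ULK1, 0.245 for ULK2, 0.455 for ATG2A, 0.209 for ATG4B, 0.115 for ATG7 and 0.015 for ATG10. Line differences that turned were ULK1 (-0.625), ATG4B (-0.119), ATG7 (-0.414) and ATG10 (-0.035) with values raised to background, ATG12 under median centring (0.190) and cyclic loess (0.008), and CALCOCO2 under quantile normalization (-0.026). Apart from the values raised to background, the cause of these turns was not tested. With 1 array per group, leaving out an array leaves no residual degree of freedom, so each line alone gives the values in the report with no test.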
